A study of Homo sapiens with 4 samples.

Results

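Cadherins, their catenin partners and 1 protocadherin were followed in cultured human melanoma cells profiled by droplet-based single-cell RNA sequencing. The members were 10 genes picked by name, CDH1, CDH2, CDH3, CDH13, CDH19, PCDH7, CTNNB1, CTNNA1, CTNND1 and JUP, and all 10 had a row among the 19238 genes of the deposited count table. The cells came from WM239A, an established melanoma line that the labels describe as poorly metastatic, and from 3 of its subclones, 113/6-4L with high lung metastatic potential and 131/4-5B1 and 131/4-5B2 with high brain metastatic potential. Each line was 1 library of cultured cells, with no treatment named and no replicate. Cell names carried a suffix from 1 to 4 that no label ties to a line, so the 4 barcode sets are described here as unlabelled samples, no set is given a line's name and no test between sets was possible.

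Cadherins are calcium-dependent adhesion receptors that bind like molecules on neighbouring cells. Inside the cell, beta-catenin or plakoglobin binds the cadherin tail and alpha-catenin, which couples the complex to actin, while p120-catenin binds nearer the membrane and keeps cadherins at the surface. Normal melanocytes hold on to keratinocytes through E-cadherin and P-cadherin, and a change towards N-cadherin is a textbook feature of melanoma progression. Free beta-catenin also acts in the nucleus as the coactivator of Wnt signalling.

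The sets held 1779 to 2140 cells and 71182648 to 71915542 UMIs (unique molecular identifiers, 1 per captured RNA molecule), with median depths of 33152.5 to 41131 UMIs per cell, the deepest cells being those of set 2. Levels are given as CPM, the summed UMIs of a gene in a set for every 1000000 UMIs counted there. All intervals are 95% intervals, exact Poisson for CPM, exact binomial for shares of cells and exact conditional binomial for ratios of CPM. For observed over expected cells they are exact Poisson on the observed cells, with the expected number held fixed. All of them cover counting error only. All 10 melanocytic markers checked had UMIs in every set, while COL1A1, PTPRC and KRT14, defining markers of fibroblasts, leukocytes and basal keratinocytes, had 0 to 3 UMIs per set. Other genes of those marker lists were present, with LUM at 908, FAP at 1101 and DCN at 68 UMIs in set 1. CD68 stood at 2096 to 2740 UMIs, KRT18 at 7205 to 10962 UMIs and KRT10 at 31298 to 34169 UMIs per set. Of the cells, 78 shared their barcode sequence with a cell of another set, and without them the spans between sets, the counts of 2-fold genes and the double-detection ratios below moved by no more than counting error.

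The sequences just upstream of CDH2, CDH19 and PCDH7, cadherin family members that were highest in set 1, are shown first, and with them the JUP window that alone held the E-box letters searched for. RefSeq windows on GRCh38.p14 were given for 6 of the 10 members, and the 250 bases before the annotated start are printed 5′ to 3′ on the gene's strand. They are chr18:28177131-28177380 (minus strand) for the first of 2 CDH2 starts, chr18:66604091-66604340 (minus) for CDH19, chr4:30720119-30720368 (plus) for PCDH7 and chr17:41785977-41786226 (minus) for the second JUP start. Capitals mark CACCTG or CAGGTG, the E-box bound by SNAIL and ZEB repressors.
CDH2: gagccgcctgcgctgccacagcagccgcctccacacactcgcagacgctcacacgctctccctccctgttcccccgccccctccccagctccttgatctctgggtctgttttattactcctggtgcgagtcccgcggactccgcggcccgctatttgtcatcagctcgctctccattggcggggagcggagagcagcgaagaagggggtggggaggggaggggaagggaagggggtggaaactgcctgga
CDH19: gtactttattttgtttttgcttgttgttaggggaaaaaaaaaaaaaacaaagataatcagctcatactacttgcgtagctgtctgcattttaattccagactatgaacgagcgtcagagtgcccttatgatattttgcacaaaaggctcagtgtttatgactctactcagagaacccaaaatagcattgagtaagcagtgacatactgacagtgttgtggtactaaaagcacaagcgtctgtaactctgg
PCDH7: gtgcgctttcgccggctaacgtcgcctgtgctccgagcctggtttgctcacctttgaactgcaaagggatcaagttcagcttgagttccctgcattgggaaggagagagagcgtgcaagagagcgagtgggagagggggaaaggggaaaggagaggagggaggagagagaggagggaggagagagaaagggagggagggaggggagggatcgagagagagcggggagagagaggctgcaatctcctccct
JUP: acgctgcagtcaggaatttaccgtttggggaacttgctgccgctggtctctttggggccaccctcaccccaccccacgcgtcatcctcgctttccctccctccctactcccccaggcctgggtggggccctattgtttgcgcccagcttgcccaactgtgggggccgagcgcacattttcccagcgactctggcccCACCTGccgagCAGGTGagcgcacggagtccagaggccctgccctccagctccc
The JUP window held 2 E-boxes, which began 54 and 43 bases before the start, and the other 10 member windows held none, against 17.5% of all 35116 windows of that length with at least 1. The TCF/LEF letters CTTTGAT or ATCAAAG were in 2 windows, both of CTNNA1 and overlapping each other, against 2.26% of all windows. The MITF E-box CATGTG or CACATG was in no member window, against 9.42% of all. A match of letters is a description of the window and was not tied to binding.

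Set 1 stood apart in N-cadherin and P-cadherin RNA, encoded by CDH2 and CDH3, in opposite directions. CDH2 stood at 24.1 CPM in set 1, 4.06 in set 2, 2.63 in set 3 and 4.52 in set 4. CDH3 stood at 0.195, 8.68, 17.97 and 14.3 CPM in the same order. Set 1 was thus the only set rich in CDH2 and the only one nearly without CDH3. The CDH2 ratio of set 1 to set 4, the next highest, was 5.34 (4.74 to 6.03), and to set 3, the lowest, 9.17 (7.89 to 10.7). Sets 4 and 2 could not be separated for CDH2 (ratio 1.11, 0.948 to 1.31), and set 3 lay below both. For CDH3, set 3 was 1.26 times set 4 (1.16 to 1.37) and 2.07 times set 2 (1.88 to 2.28), and the lowest of these 3 sets, set 2, was 44.4 times set 1 (26.3 to 81.7). The whole of CDH3 in set 1 was 14 UMIs in 14 cells.

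**Figure D1:**
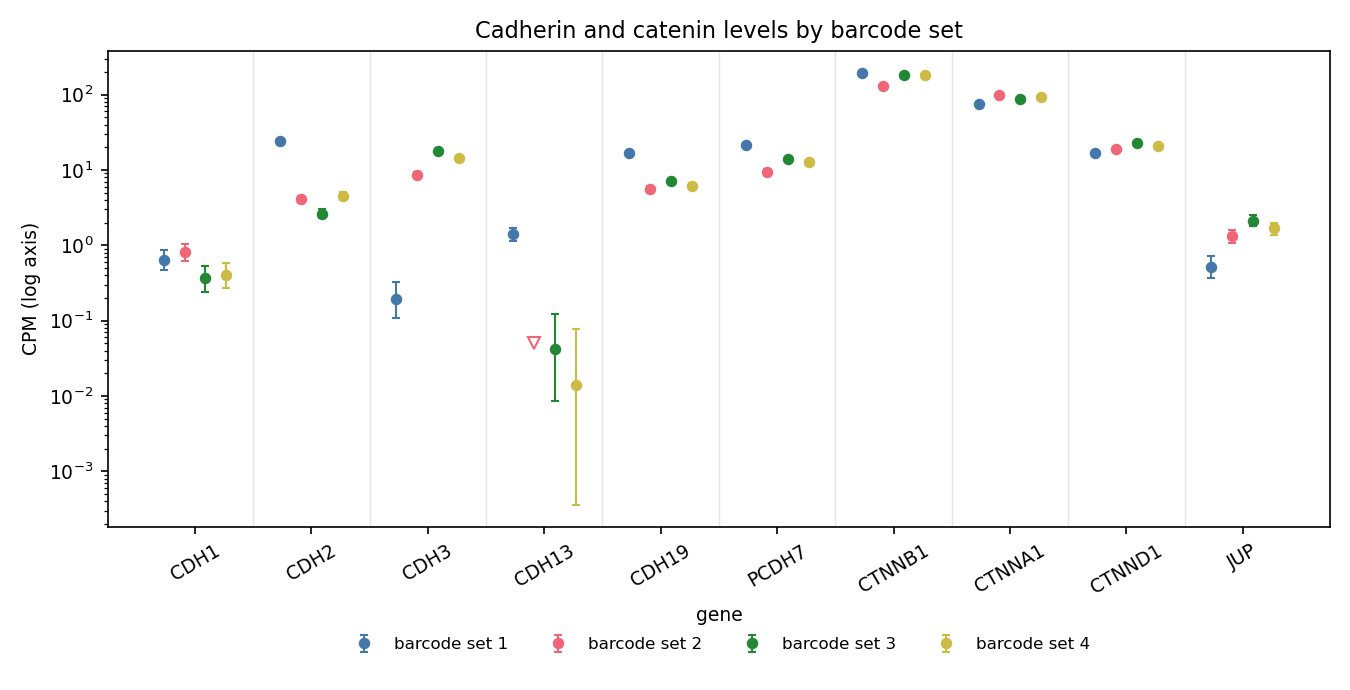
CPM of each member (log axis) in barcode sets 1 to 4, with exact 95% Poisson intervals; the open triangle is the upper limit of a gene with 0 UMIs. CDH2 and CDH13 are highest and CDH3 and JUP lowest in set 1, while CTNNB1, CTNNA1 and CTNND1 lie close together in the 4 sets.

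CDH19, PCDH7 and CDH13 were, like CDH2, highest in set 1. CDH19, a type II cadherin of neural crest and Schwann precursor cells, stood at 16.7, 5.52, 7.05 and 6.15 CPM in sets 1 to 4. Set 1 was 2.37 times set 3 (2.13 to 2.63), the next highest, and the order of sets 4 and 2 was within counting error (1.11, 0.971 to 1.28). PCDH7, a protocadherin reported in brain metastasis of other cancers, stood at 21.4, 9.48, 14.1 and 12.8 CPM, a smaller spread, with set 1 at 1.52 times set 3 (1.41 to 1.65) and 2.26 times set 2 (2.06 to 2.48). CDH13, encoding T-cadherin, which has no cytoplasmic tail and is held by a lipid anchor, was counted 101 times in set 1 and 0, 3 and 1 times in sets 2 to 4. With a fixed limit of 3 UMIs put in place of the count of 0, set 1 was at least 33.8-fold higher than set 2 in CDH13. With the counting error of both sets the lower limit of the ratio was 27.0. Against the 3 UMIs of set 3 the ratio was 33.6 (11.2 to 166), and against the 1 UMI of set 4 it was 100.4 (17.6 to 4004). The 0 of 1779 cells of set 2 allows a share of up to 0.207%.

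CDH1, encoding E-cadherin, was near the limit of detection everywhere, with 46, 58, 26 and 29 UMIs and 0.642, 0.807, 0.364 and 0.407 CPM. Its highest set, set 2, was 2.22 times its lowest, set 3 (1.37 to 3.67), and sets 1 and 2 could not be separated (1.26, 0.838 to 1.89). CDH1 lies next to CDH3 on chromosome 16 with 0 protein-coding genes between them in the RefSeq order, so 2 adjacent genes of 1 locus had different patterns. The other neighbours with a row spanned at most 0.59 on the log2(CPM + 1) scale. ZFP90, beyond CDH3, stood at 6.14, 3.74, 4.81 and 4.55 CPM, PRMT7 at 15.9, 13.2, 18.6 and 17.9 CPM, and TANGO6, beyond CDH1, at 6.74, 5.26, 6.21 and 6.17 CPM. HAS3 stayed under 0.306 CPM and CHTF8 lay between 32.7 and 36.4 CPM.

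The catenins differed far less, apart from plakoglobin. CTNNB1, beta-catenin, stood at 194, 132, 181 and 181 CPM, lowest in set 2. Set 1 was at 1.47 times set 2 (1.43 to 1.51), and sets 4 and 3 were not separable (1.004, 0.979 to 1.03). CTNNB1 counts varied among cells well beyond counting noise, as described below, so both intervals are too narrow. CTNNA1, alpha-catenin, was lowest in set 1, at 75.1, 98.0, 86.8 and 94.2 CPM. CTNND1, p120-catenin, was also lowest there, at 16.9, 19.2, 22.9 and 20.9 CPM, and its highest set, set 3, was 1.36 times set 1 (1.26 to 1.47). JUP, plakoglobin, which also serves desmosomes, was the sparse member of this group, with 37, 95, 152 and 119 UMIs, or 0.517, 1.32, 2.13 and 1.67 CPM. Set 3 was at 4.12 times set 1 (2.86 to 6.07), set 1 was lowest as for CDH3, and sets 3 and 4 could not be separated (1.27, 0.995 to 1.63).

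For a common yardstick, a gene was called when its log2(CPM + 1) differed by at least 1, a 2-fold difference, between its highest and lowest set. This scale understates ratios of weakly expressed genes. A minimum of 10 CPM in any set was met by 7 members. Of these, 4 were called, CDH2, CDH3, CDH19 and PCDH7, against 5.85% of the 7421 genes with that level. Each of the 4 was under 10 CPM in at least 1 set and passed through the sets where it was high, so passing the minimum and being called are linked and the count is a description. With a pseudocount of 10 CPM the spans of CDH19 and PCDH7 were 0.78 and 0.69, and their calls were lost. With no minimum, CDH13 and JUP joined them to make 6 of 10 members, against 5.26% of all genes. The median span was 1.10 over the 7 members and 0.33 over the 7421 genes. CDH2 and CDH19 were called above every other set in set 1, where 1.01% of genes were, and CDH3 below every other set, where 1.05% were. Between sets 3 and 4, 0 of 10 members were called, against 0.0539% of genes.

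Shares of cells also set set 1 apart. The shares of sets 2 and 4 with CDH2 had overlapping intervals at the deposited depth, 12.6% to 15.9% and 11.5% to 14.4%. At the deposited depth, CDH2 was seen in 49.4% of cells of set 1 (47.3% to 51.6%) and in 14.2%, 8.08% and 12.9% of sets 2 to 4, and CDH3 in 0.660% of set 1 (0.361% to 1.11%) and in 27.4%, 42.2% and 35.5% of the others. Because the cells of set 2 were deeper, every cell was also thinned at random to 10000 UMIs, which left out 6, 1, 1 and 1 shallower cells. CDH2 was then seen in 20.8%, 3.99%, 2.66% and 4.41% of cells and CDH3 in 0.284%, 7.65%, 15.5% and 14.1%. Most positive cells held a single UMI. Cells with 2 or more CDH2 UMIs made up 20.5% of set 1 and at most 1.91% of another set, and the highest count in a cell was 8 in set 1 and 3 elsewhere. For CDH3, cells with 2 or more made up 6.52%, 13.0% and 8.86% of sets 2 to 4 and none of set 1. No cell type that lacks these genes was present to measure the UMIs that free RNA adds, so the low shares, CDH3 in set 1 included, are not read as expression.

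CDH2 and CDH3 were found in the same cell less often than their shares predict in the pooled cells, and not detectably so within a set. Over all 8173 cells, 236 held both transcripts where 463 would be expected if the 2 shares were multiplied, a ratio of 0.510 (0.447 to 0.579). When the expectation was formed inside each set and added up it was 247 cells, and the ratio was 0.956 (0.838 to 1.09). Set 2 had 69 cells with both against 69.3 expected (ratio 0.996, 0.775 to 1.26). Set 3 had 71 against 73.1 (0.972, 0.759 to 1.23), and set 4 had 90 against 97.7 (0.921, 0.741 to 1.13). Set 1, with its few CDH3 cells, had 6 against 6.92 (0.867, 0.318 to 1.89). The lower bounds at the deposited depth, 0.741 to 0.775 in sets 2 to 4, leave room for a partial shortage that this depth does not show. With cells thinned to 10000 UMIs the lower bounds of sets 2 to 4 were 0.405, 0.465 and 0.310. The ratio added up over sets 1 to 4 was then 0.868 (0.562 to 1.28), so a larger shortage is not excluded at equal depth.

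The same held when shares were read one way. In set 3, 41.0% of cells with CDH2 also had CDH3 (33.6% to 48.8%), and 42.3% of cells without CDH2 did (40.2% to 44.6%). In set 4 these shares were 32.7% (27.2% to 38.6%) and 36.0% (33.8% to 38.2%), and in set 2 27.3% (21.9% to 33.2%) and 27.4% (25.2% to 29.7%). Cells with both were the deepest in sets 1 to 3, at a median of 40570, 47393 and 37919 UMIs against 31395, 39421.5 and 31619 in cells with neither. In set 4 they had 36948 against 31116.5. At 10000 UMIs per cell, few cells held both, 1, 6, 9 and 9 in sets 1 to 4 against 1.25, 5.43, 8.85 and 13.3 expected, and every interval of the ratio included 1.

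**Figure D2:**
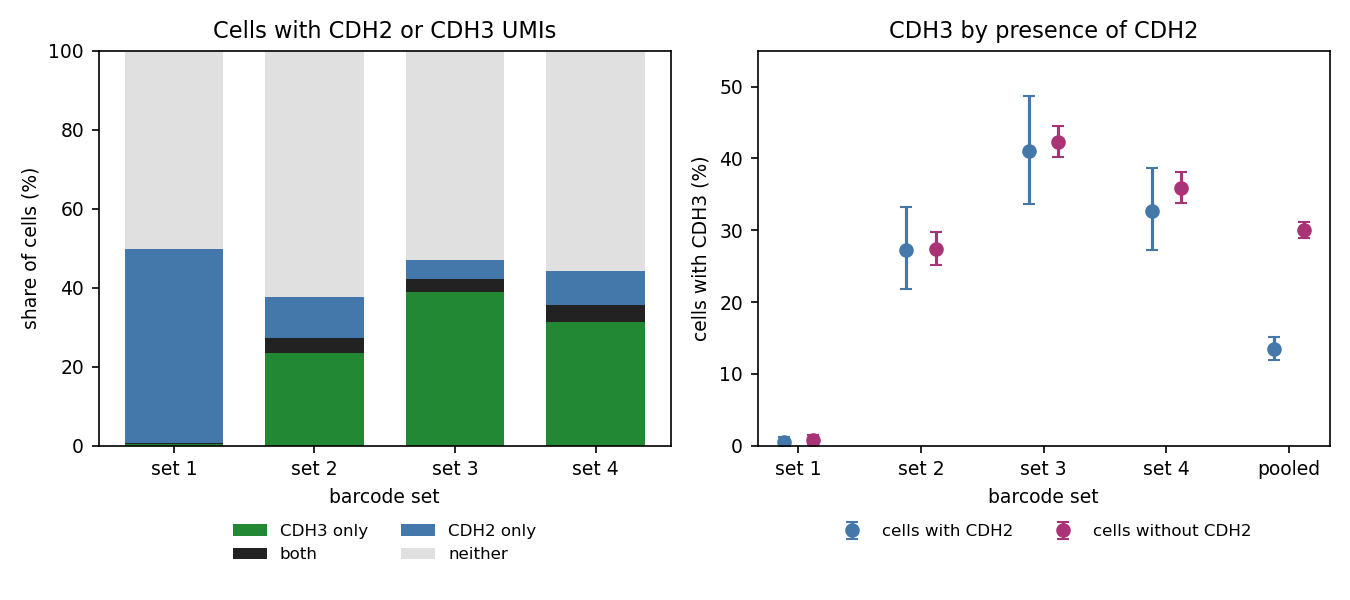
Left, share of cells (%) of each barcode set with UMIs of CDH3 only, both, CDH2 only or neither at the deposited depth; right, share of cells with CDH3 among cells with and without CDH2, with exact 95% binomial intervals. Within each set the intervals overlap, whereas over the pooled cells the shares were 13.5% with CDH2 and 29.997% without.

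Levels were compared in the same way. In cells of set 3 with CDH3 in the thinned data, CDH2 stood at 2.93 CPM (1.99 to 4.15) at the deposited depth, and in cells without it at 2.58 CPM (2.19 to 3.02). In set 4 the values were 3.86 CPM (2.73 to 5.30) and 4.63 CPM (4.11 to 5.20), and in set 2 4.17 CPM (2.61 to 6.31) and 4.05 CPM (3.58 to 4.57). The other members were compared between cells with only CDH2 and cells with only CDH3 detected, within sets 2 to 4. Of 16 combinations of member and set the interval of the ratio left out 1 in 3, against 10.1% of 28521 combinations over all genes. PCDH7 was higher in the CDH2 class of set 2 (2.01, 1.22 to 3.31), and in sets 3 and 4 its ratios were 0.918 (0.536 to 1.49) and 1.24 (0.838 to 1.79). In set 4 the ratio of the CDH2 class to the CDH3 class was 0.815 (0.734 to 0.902) for CTNNB1 and 1.19 (1.04 to 1.36) for CTNNA1. At 10000 UMIs per cell, CTNNB1 counts in set 4 had a variance of 5.09 times their mean. The CTNNB1 interval assumes pure counting noise and is therefore too narrow, so its ratio is not read as a difference. It is still 1 of the 3 combinations counted above, so that count is not read as an excess over 10.1%. Among all pairs of members at 10000 UMIs, 64 combinations of pair and set had at least 20 cells expected with both. In 0 of them did the interval of observed over expected lie below 1, and in 2 it lay above 1. The 2 were CDH19 with PCDH7 in set 1 (85 cells against 66.0) and CDH3 with CTNND1 in set 3 (88 against 69.1). These Poisson intervals are too wide for genes found in many cells, such as CTNNB1 and CTNNA1. The counts of 0 and 2 therefore do not show that the remaining combinations were independent. Pearson's r over cells of the 64 combinations lay between -0.035 and 0.091.

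Within sets, CDH19 followed the cell cycle. Phases were assigned from S and G2M gene scores that contain no member. CDH19 stood at 21.7, 7.10, 8.87 and 8.90 CPM in G1 cells of sets 1 to 4 and at 11.2, 3.87, 4.94 and 4.58 CPM in G2M cells, so the ratio was 0.518, 0.545, 0.557 and 0.515, and no interval reached 0.727. The median gene had a ratio of 1.02 to 1.04. Of the 6 members with at least 20 UMIs in both phases of every set, CDH19 alone was at least 1.5-fold lower in G2M in every set, as 0.705% of 7373 genes were. JUP, countable in sets 3 and 4 only, was lower as well, with ratios of 0.406 (0.237 to 0.674) and 0.297 (0.164 to 0.522).

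PCDH7 and CDH2 varied with phase in some sets. PCDH7 stood at 27.6 CPM in G1 and 12.6 CPM in G2M cells of set 1, a ratio of 0.456 (0.391 to 0.530), whereas in sets 2 to 4 the ratio was 0.734, 0.898 and 0.924. CDH2 in set 1 was at 25.4, 25.2 and 20.6 CPM in G1, S and G2M cells. In sets 2 to 4 it was lowest in G1, at 2.88, 1.44 and 2.59 CPM, and higher in S, at 5.15, 3.35 and 5.66 CPM. The G1 and S intervals of CDH2 did not overlap in sets 2, 3 and 4, the closest being 2.15 to 3.78 and 4.41 to 5.98 CPM in set 2. Whether these patterns differ between sets was not tested, and in sets 2 to 4 the median depth was 41859, 34207.5 and 33998.5 UMIs in S cells against 38183, 30639 and 30470 in G1 cells. CDH3 was near even, with ratios of 0.933, 1.03 and 1.10 in sets 2 to 4, and so was CTNND1, at 0.993 to 1.09. CTNNA1 stood lower in G2M cells of every set, with ratios of 0.917, 0.762, 0.733 and 0.851 in sets 1 to 4. CTNNB1 had ratios of 0.760, 0.938, 0.829 and 0.944.

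**Figure D3:**
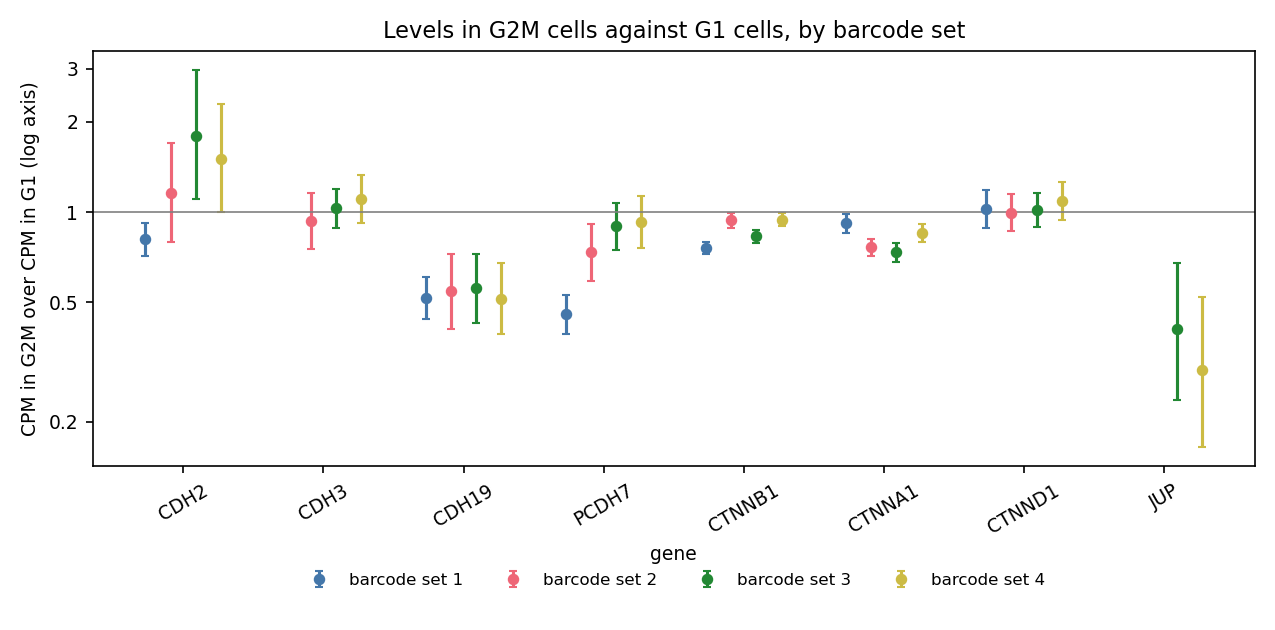
Ratio of CPM in G2M cells to CPM in G1 cells (log axis) for members with at least 20 UMIs in both phases of a set, with exact 95% intervals; CDH13 is not drawn. CDH19 lies between 0.515 and 0.557 in all 4 sets.

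CTNNB1 was the member most unevenly spread over cells. At 10000 UMIs per cell the variance of its counts was 5.70, 3.67, 4.35 and 5.09 times their mean in sets 1 to 4, where 1 is the value of pure counting noise and the median compared gene had 1.04 to 1.05. Among 549, 771, 582 and 598 genes with a mean within 1.5-fold of it, 0, 0, 3 and 0 had a larger ratio, and the 3 in set 3 were IGFBP5, APOD and IER3, named after their values were seen. The median cell held 1 CTNNB1 UMI in every set, but the highest held 29, 22, 32 and 40. The top 5% of cells carried 33.4%, 33.6%, 30.7% and 33.2% of its UMIs. CTNNA1 was spread far more evenly, with 18.8% to 21.5% of UMIs in its top 5% of cells and at most 7 UMIs in a cell. The other members had ratios between 0.933 and 1.18 in these cells.

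Cells with 10 or more CTNNB1 UMIs after thinning numbered 113, 35, 68 and 85 in sets 1 to 4, which was 5.34%, 1.97%, 3.18% and 3.99% of cells. Without them CTNNB1 stood at 152, 119, 150 and 144 CPM, still lowest in set 2. They were shallower than the rest in set 1, at a median of 18603 against 34553.5 UMIs, and in the others at 28116 against 41254, 31671 against 33203 and 26754 against 33555 UMIs. Their median mitochondrial share was 5.10%, 6.41%, 6.72% and 7.04% against 5.41%, 6.74%, 7.13% and 6.82%. The part of depth in this pattern was not tested.

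The 5 genes with the highest r with CTNNB1 over cells, averaged over the 4 sets, were looked up after the uneven spread had been seen. Here r was taken on the natural log of thinned counts plus 1, whereas r of the member pairs above used the thinned counts themselves. HNRNPH1, an RNA-binding protein of splicing, had r of 0.456, 0.395, 0.355 and 0.404 with CTNNB1 in sets 1 to 4. FAM211A had 0.288 to 0.379, C1orf56 0.259 to 0.409, MDM4, an inhibitor of p53, 0.251 to 0.337, and PPP1CB, a phosphatase subunit, 0.217 to 0.336. These genes were picked by r over the same cells. Higher levels in cells rich in CTNNB1 follow from that choice and are no further result. In cells with 10 or more CTNNB1 UMIs, HNRNPH1 stood at 420, 496, 380 and 435 CPM and in the rest at 91.6, 88.1, 82.5 and 88.9 CPM. FAM211A stood at 109, 143, 110 and 116 CPM and in the rest at 13.9, 14.4, 14.8 and 12.5 CPM. Partners and targets of beta-catenin, taken by name and not by r, had r near 0. LEF1, its DNA-binding partner, had r between -0.020 and 0.038, CCND1, cyclin D1, between 0.021 and 0.057, and MYC between -0.025 and 0.007. For CDH2, CDH3, CDH19, PCDH7, CTNNA1 and CTNND1, the highest mean r with any compared gene was 0.093, for CTNNA1 with S100A6. All these correlations are over cells of 1 library each at equal depth and are descriptions.

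**Figure D4:**
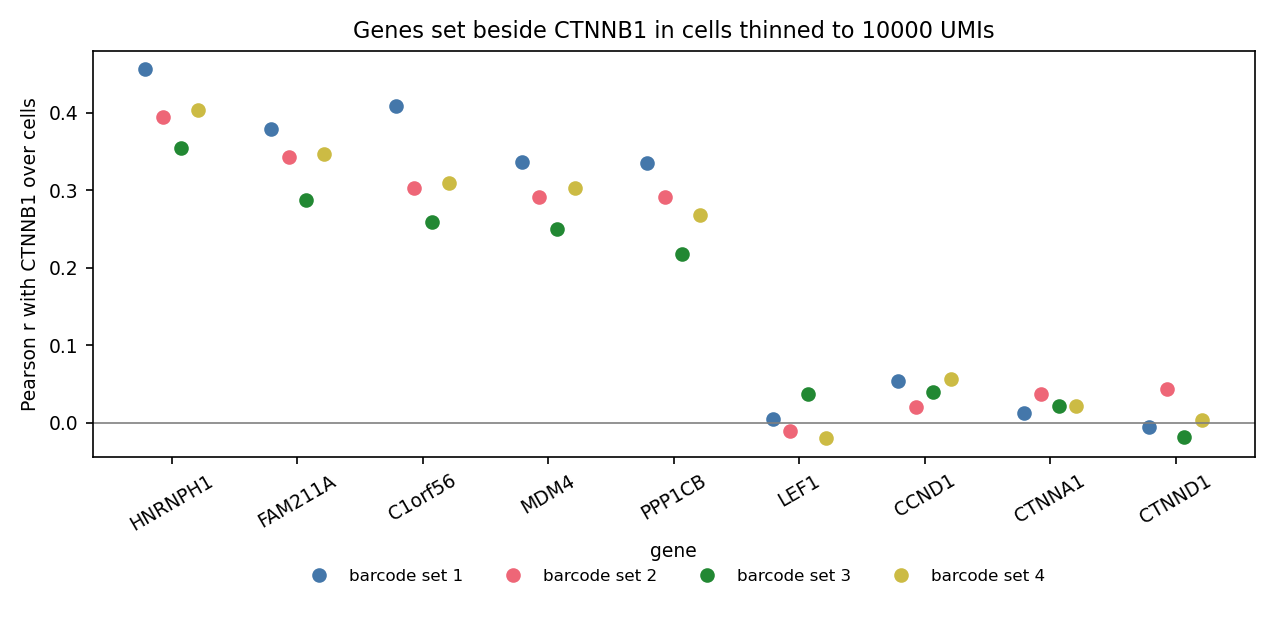
Pearson's r with CTNNB1 in barcode sets 1 to 4, over cells thinned to 10000 UMIs and on the natural log of counts plus 1. Shown are the 5 most similar genes, 2 partners or targets of beta-catenin and 2 other catenins. The 5 genes lie between 0.217 and 0.456 in every set and the other 4 between -0.020 and 0.057.

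Wider lists of the pathway were then read, in which a gene was counted as measured on reaching 10 CPM in any set and called by the same 2-fold rule. Of 18 other classical and type II cadherins, 9 had a row and 0 were measured. CDH7, chosen after its values were seen, had 123 UMIs in set 1, 1 in set 2 and 58 and 74 in sets 3 and 4. Of 28 protocadherins and large cadherins 1 was measured and 0 called. FAT1, also chosen after its values were seen, had 138 UMIs in set 1 and 4, 8 and 14 in the others. Of the desmosome list, DSG2, desmoglein 2, alone was measured, at 18.2, 27.0, 29.3 and 30.01 CPM, lowest in set 1 like JUP.

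Junction partners divided. Of 12 measured, 3 were called, against 5.85% of all compared genes, 2 of them highest and 1 lowest in set 1. TJP1, the tight junction scaffold ZO-1, stood at 26.6, 17.1, 5.11 and 7.66 CPM and PVRL3, nectin 3, at 14.5, 7.23, 5.40 and 5.76 CPM. PDLIM1, which binds alpha-actinin, ran the other way, at 26.2, 39.5, 55.8 and 55.01 CPM. Of 10 measured genes of cadherin processing and turnover, 0 were called. ADAM10, the sheddase of N-cadherin and E-cadherin, named for that role after its values were seen, stood at 33.4, 27.0, 32.9 and 31.5 CPM. ADAM17, a related sheddase, stood at 29.4, 18.4, 20.8 and 21.3 CPM, and PSEN2, a gamma-secretase subunit, at 56.1, 70.4, 81.8 and 81.8 CPM.

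Among transcription factors of the cadherin switch, 1 of 6 measured was called, against the same 5.85%. TWIST1 stood at 19.3, 8.69, 6.87 and 6.87 CPM, highest in set 1 as CDH2 was. SNAI2 was lowest in set 2 (36.5, 26.3, 51.2 and 45.5 CPM), and so was TFAP2A (46.4, 31.6, 59.7 and 51.9 CPM). The next genes were chosen after their values were seen. ZEB2 stood at 47.5, 29.2, 32.8 and 31.5 CPM, highest in set 1, while ZEB1 and TCF4, both under 10 CPM, were nearly missing from set 1. ZEB1 had 7, 83, 238 and 200 UMIs and TCF4 7, 288, 440 and 441 UMIs, so both were lowest in set 1 as CDH3 was. Set 1 therefore held the most TWIST1 and ZEB2 and the least ZEB1.

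None of the 7 measured genes of the beta-catenin destruction complex was called, and GSK3A, a kinase of the complex, stood at 18.3, 18.2, 22.1 and 21.6 CPM. Among 4 measured partners and targets CCND1 alone was called, at 416, 770, 914 and 931 CPM. LEF1 was highest in set 2 (78.9, 116, 91.1 and 92.0 CPM), where CTNNB1 was lowest, and MYC was lowest there (79.2, 51.6, 77.0 and 68.9 CPM).

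**Figure D5:**
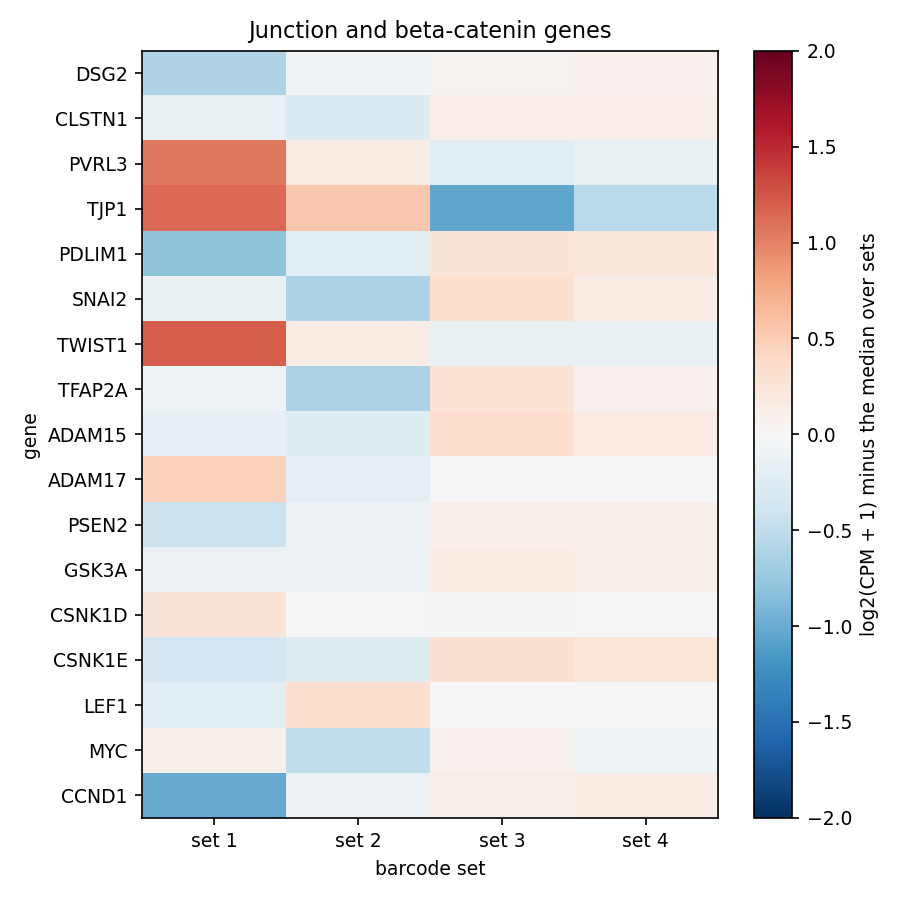
Genes named from the pathway lists (rows) in barcode sets 1 to 4 (columns), coloured by log2(CPM + 1) after subtraction of each gene's own median. TWIST1, TJP1 and PVRL3 are highest and CCND1 and PDLIM1 lowest in set 1.

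The 2 measured fibroblast markers, LUM and FAP, were, like CDH2, CDH13 and CDH19, highest in set 1. The fibroblast list, 7 of 9 genes with a row, reached a summed level of 29.7 CPM in set 1 and lay between 4.53 and 5.20 CPM elsewhere. It was carried by LUM (12.7, 2.18, 0.182 and 0.407 CPM) and FAP (15.4, 2.07, 3.86 and 4.44 CPM). DCN, under 10 CPM, was also nearly confined to set 1, with 68, 0, 1 and 1 UMIs. COL1A1 had 0 UMIs in set 1, and PDGFRA had 21, 12, 14 and 12, PDGFRB 9, 14, 7 and 6 and THY1 20, 13, 12 and 4 UMIs in sets 1 to 4. Of 9 measured melanocytic genes 5 were called, against 5.85% of all compared genes, and they split, with S100B highest and PMEL lowest in set 1 and DCT, GPR143 and EDNRB lowest in set 2. Of 6 measured undifferentiated or invasive genes 5 were called, all 5 highest in set 1, where 206 of the 7421 compared genes were called and highest. CTGF was among them (15.9, 7.27, 2.80 and 3.15 CPM). In the keratinocyte and epithelial list 0 of 4 measured genes were called, in the immune list 0 of 1, and the endothelial list had none measured. The part of these genes in the cadherin pattern was not tested.

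Over the 4 sets, the genes nearest to CDH2 by Euclidean distance between centred log2(CPM + 1) values were RP11-19N8.4 (distance 0.40), TCTEX1D2 (0.55), FMN2 (0.58), PDLIM2 (0.58) and CITED1 (0.62). FMN2, an actin nucleator, stood at 110, 17.0, 14.2 and 13.6 CPM. The nearest to CDH3 were PXDN (0.29), TUBA3C (0.54), LINC00221 (0.57), CASP1 (0.62) and a clone-named RNA (0.81). PXDN, a matrix peroxidase, stood at 1.03, 16.4, 26.2 and 27.4 CPM. TUBA3C has near-identical copies, so its counts are uncertain.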

How the data were processed

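Single-cell 3' libraries of 4 melanoma lines were made with the Chromium version 2 kit, per the labels' protocols. The authors deposited UMI counts per gene and cell, used here as the only input; a natural log table of the same cells was not used. The tools Cell Ranger 3.0.0 and Seurat 3.0 and the builds hg19 and mm10 are listed in the submitters' processing notes, in roles not given in the sources used here. Cells held 3001 to 6999 genes, the range a filter on gene number would leave. No doublet caller was run. Counts were summed by barcode suffix. Thinning, phases (scanpy 1.11.5), intervals (scipy 1.17.1) and TMM factors (edgeR 4.0.16) were computed from the counts, and the calculation of calls was tested on simulated data. No p-value was computed, because each set is 1 sample.

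The 10 members and the gene lists were chosen with earlier results of these data known. Named genes were the members, up to 3 measured genes with the widest span per list, the 5 genes nearest to CDH2 and to CDH3, neighbours of CDH1 and CDH3, and melanocytic and invasive genes in cells with 1 of the pair. Alternatives were TMM, other totals, other minimums, a larger pseudocount, other depths and seeds, G1 cells, a mitochondrial limit and means over cells. CDH1, CDH3, CDH13 and CTNND1 sequences were not used here. The result of 1 further marker list is not reported here.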

Additional observations from a re-analysis of the deposited data

How the results depend on the processing

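No paired analysis was possible because every line has 1 library and no barcode set is tied to a line. Of 364 alternative spans over 52 genes, 88 moved by more than counting error, 276 did not and 0 changed direction. Leaving out cells with shared barcodes was chosen after seeing the data. With a pseudocount of 10 CPM, which shrinks differences of weak genes, 2 members instead of 4 were 2-fold apart, CDH19 and PCDH7 being lost, and the log2 spans were 1.43 instead of 2.79 for CDH2 (set 1 over set 3) and 1.46 instead of 3.99 for CDH3 (set 3 over set 1). With a minimum of 50 CPM 0 members were counted, since CDH2, CDH3, CDH19 and PCDH7 do not reach it. Over all genes the count of 434 became 198 with that pseudocount, 126 with that minimum and 1012 with no minimum. In G1 cells the CDH2 span was 3.44, and with mitochondrial and ribosomal protein genes left out of the totals the CDH3 span was 4.42. That scaling raised the median of all genes by 0.48 to 0.53 in every set.

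Of 27 alternative ratios of observed to expected cells with CDH2 and CDH3, 21 stayed within the interval at 10000 UMIs (main ratios 0.803, 1.10, 1.02 and 0.678). Set 1 gave 0 with another thinning seed and in G1 cells, and set 2 gave 0 in G1 cells, where fewer than 1 cell was expected. Counting only cells with 2 or more UMIs gave 2.71 in set 2, 0 in set 3 and 1.69 in set 4, from 6, 0 and 6 cells, and no ratio in set 1, which had no cell with 2 CDH3 UMIs. The CPM of genes such as CDH1, CDH13 and JUP is limited by depth, 1 UMI being worth 0.014 CPM.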

Other observations

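Cells with CDH2 but no CDH3 and cells with CDH3 but no CDH2, sorted at 10000 UMIs, were compared within sets 2 to 4 in melanocytic and invasive genes. The classes record which UMIs were found, with no measure of what free RNA adds, and are not read as expressing and non-expressing cells. They numbered 65 and 130 cells in set 2, 48 and 323 in set 3 and 85 and 292 in set 4, and all levels are from the deposited depth. Cells with neither gene were not compared, and the classes were not matched for cell cycle phase, with which CDH2 varied in sets 2 to 4. DCT, an enzyme of melanin synthesis, stood lower in the CDH2 class than in the CDH3 class of each set. Its levels were 125 against 175 CPM in set 2, 408 against 487 CPM in set 3 and 272 against 356 CPM in set 4. GPR143, a melanosomal receptor, stood at 46.6 against 64.9 CPM in set 3 and 38.8 against 56.7 CPM in set 4, and at 6.84 against 8.01 CPM in set 2, where the ratio was 0.854 (0.461 to 1.52). MITF had ratios of 0.931 (0.834 to 1.04), 0.919 (0.827 to 1.02) and 0.902 (0.829 to 0.981). FOSL1, an AP-1 subunit, stood higher in the CDH2 class than in the CDH3 class of sets 2 and 3. Its ratios were 1.61 (1.22 to 2.12) and 2.48 (1.77 to 3.42), and in set 4 the ratio was 1.14 (0.853 to 1.52). CYR61 went in opposite directions, with ratios of 4.79 (3.32 to 7.02) in set 2 and 0.316 (0.134 to 0.639) in set 3.

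The interval left out 1 in 16 of 27 combinations of melanocytic gene and set, 1 of the 16 being higher with CDH2, and in 5 of 16 combinations of invasive gene and set, 3 of the 5 being higher with CDH2. Over all genes the share was 10.1%, and the listed genes were not matched to all genes in level. Some of the 16 were small differences in abundant genes, such as MLANA in set 3 (0.963, 0.933 to 0.993) and PMEL in set 4 (1.03, 1.01 to 1.05). Spread among cells was not measured for the listed genes, so these counts are not read as a difference between the classes. The intervals cover counting error only, and no test was run, because cells are not replicates.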
